A study of Mus musculus with 38 samples.

Results

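Small lung arteries thicken when mice breathe air poor in oxygen, and return to normoxia is followed by a regression of that change. This account concerns 1 step of the return: the vessels of animals at day 7 against those of animals at day 3. It rests on 4 of the 38 two-colour arrays of the series, those that carried a day 7 animal in one dye and a day 3 animal in the other. They were taken by their titles, which name the Cy3 sample and then the Cy5 sample: 2 arrays are titled N3_N7 and 2 are titled N7_N3. Each array held 1 animal in each channel, so these 4 arrays were counted as 4 day 7 animals against 4 day 3 animals. Every log ratio was turned to day 7 minus day 3, so that a positive value is higher at day 7.

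Day 7 animals had lived for 21 days in hypoxia (inspired oxygen fraction 0.10) and then for 7 days in normoxia (0.21). Day 3 animals had the same 21 days of hypoxia and 3 days of normoxia. Both groups were C57BL/6J mice aged 12 to 18 weeks, with no transgene or drug named, and the labels give no litter, sex or array slide for an animal. Vessels of 50 to 100 µm outer diameter were laser-microdissected from 10 µm cryosections stained with hemalaun, and 1 µg of amplified RNA was labelled per channel. The dissected wall can hold endothelium, smooth muscle, adventitia, blood and neighbouring alveolar tissue. A ratio carries no level, so the presence of vessel markers could not be read from these values, and fewer cells of a type and less RNA per cell cannot be told apart. The other 34 arrays link day 7 and day 3 to hypoxia, to day 1 and to day 14. Counting each channel as 1 animal, 12 animals of day 7 and 12 of day 3 were measured in all. The sample names hold no animal identifier, so an animal used on more than 1 array could not be seen. The 34 arrays entered the fit of the dye effect and of the loop, and gave an estimate of the same step from other arrays.

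In this disease model, as background, chronic hypoxia activates hypoxia-inducible factors, makes smooth muscle cells of small arteries divide and deposit matrix, and raises the number of red cells. Return to normal oxygen withdraws the stimulus, after which excess cells and matrix are removed over days to weeks. The gene groups below therefore cover the vessel wall, its matrix and the enzymes that crosslink or cut it, growth factor signals, oxygen-dependent genes, blood cells, and the cell types that a dissection can carry along.

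The sources used here name no base for the deposited log ratios. Their small size led to a log10 reading, and a fold is given for both readings where one is printed. The direction was taken as Cy5 over Cy3, the usual convention, and so is likely and not settled. Were it the reverse, the sign of every log ratio below would turn, and higher and lower would change places throughout. Estimates ± SE come from limma over the 38 arrays, with a dye term, and p-values were adjusted by Benjamini-Hochberg over 30653 entries (19087 named genes and 11566 features with no single gene symbol). An entry was called at an adjusted p below 0.05.

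Between day 7 and day 3 the vessels differed little by this test. Only 3 entries of 30653 were called (0.00979%), all lower at day 7 (all higher were the ratios Cy3 over Cy5), and 1 of them is a named gene, 1700088E04Rik. The log ratio of this RIKEN-named protein-coding gene was -0.0582 and -0.270 on the arrays N3_N7 1 and 2, and -0.194 and -0.0952 on N7_N3 1 and 2. All 4 were below 0, in both dye orientations. The estimate over the 38 arrays was -0.158 ± 0.0255 (limma, adjusted p = 0.0123), which is 1.44-fold lower at day 7 if the values are log10 and 1.12-fold lower if they are log2. The 34 other arrays, counted as other animals, gave -0.163 ± 0.0364, and the 4 gave a mean of -0.154 ± 0.0960 (SD, n = 4). Both are parts of the fit that chose the gene, so their shared sign is no separate evidence. With 4 arrays, 1 sign throughout is matched by 2 of the 16 sign patterns, so an exact sign-turning test, two-sided, cannot pass the threshold. Without the array N3_N7 2 the estimate was -0.141 with an adjusted p of 0.0974, and without N7_N3 1 the adjusted p was 0.0651, so the call rests on both. The gene has 1 feature on the array.

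The other 2 called entries are features with no gene symbol. Feature 32684 had log ratios of -0.458, -0.533, -0.332 and -0.0584 on the 4 arrays, with an estimate of -0.288 ± 0.0499 (adjusted p = 0.0235). Feature 36121 had -0.298, -0.130, -0.275 and -0.407, with an estimate of -0.242 ± 0.0447 (adjusted p = 0.0481). All 8 values lay below 0. The 34 other arrays gave -0.225 for the first and -0.197 for the second. Both features were called by a fit that holds all these arrays, so the shared signs are no separate evidence.

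At an unadjusted p under 0.05, 3135 entries differed (10.23%). Of all entries 5.56% were higher at day 7 at that level and 4.67% were lower, and these shares would change places on the reverse reading of the dyes. Among named genes the numbers were 1102 higher and 864 lower. The same sign on all 4 direct arrays was found for 3620 entries, or 11.8%. The median size of an estimate was 0.0237 and the median SE was 0.0298. For day 3 minus day 1 they were 0.0185 and 0.0300, and for day 14 minus day 7 they were 0.0192 and 0.0307. Without the array N3_N7 2, 2232 entries had such a p and 0 were called, with a smallest adjusted p of 0.0974.

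The promoters of the called gene and of the 2 lower genes next to it by p among those of 1 sign on all arrays, Fitm2 and Eno2, are shown to give the sequence around each start. They are RefSeq windows of build GRCm38.p6, from 250 bases before the start to 50 after it, written 5′ to 3′ on the gene's strand. Capitals mark ACGTG or GCGTG on either strand, the core bound by hypoxia-inducible factors, and matches may overlap. 
1700088E04Rik, chr15:79141202-79141501, minus strand: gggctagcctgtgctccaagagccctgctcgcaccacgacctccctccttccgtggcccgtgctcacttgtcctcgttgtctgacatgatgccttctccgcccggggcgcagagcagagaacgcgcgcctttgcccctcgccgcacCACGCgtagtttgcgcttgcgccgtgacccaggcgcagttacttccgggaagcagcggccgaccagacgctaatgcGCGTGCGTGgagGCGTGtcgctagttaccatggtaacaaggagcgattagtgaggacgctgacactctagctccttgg
Fitm2, chr2:163472580-163472879, minus strand: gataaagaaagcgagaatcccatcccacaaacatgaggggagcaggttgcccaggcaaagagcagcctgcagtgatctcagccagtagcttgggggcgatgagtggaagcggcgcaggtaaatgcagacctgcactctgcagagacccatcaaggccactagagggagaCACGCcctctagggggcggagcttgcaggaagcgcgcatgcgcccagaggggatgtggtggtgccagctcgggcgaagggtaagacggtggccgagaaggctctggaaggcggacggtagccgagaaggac
Eno2, chr6:124769624-124769923, minus strand: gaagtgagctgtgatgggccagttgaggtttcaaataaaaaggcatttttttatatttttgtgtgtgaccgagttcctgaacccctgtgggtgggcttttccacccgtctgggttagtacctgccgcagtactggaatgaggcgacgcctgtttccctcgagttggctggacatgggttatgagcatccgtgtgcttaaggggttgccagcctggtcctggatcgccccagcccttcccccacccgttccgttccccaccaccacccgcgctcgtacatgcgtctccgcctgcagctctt
The window of 1700088E04Rik held 4 matches, that of Fitm2 held 1 and that of Eno2 held 0. At least 1 match was present in 43.77% of the 32851 promoters of the table. A match is a description of these letters and not a bound site.

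The genes closest to the call were taken as the 12 in each direction with the smallest p among those of 1 sign on all 4 direct arrays. Since that sign chose them, their array values describe them and test nothing. Apart from 1700088E04Rik none of the 24 was called. Eno2, the neuronal enolase of glycolysis, had log ratios of -0.383, -0.141, -0.187 and -0.176 on N3_N7 1 and 2 and N7_N3 1 and 2. The estimate was -0.174 ± 0.0350 (adjusted p = 0.0996), or 1.49-fold lower at day 7 on a log10 reading and 1.13-fold on a log2 reading. Its 2 features gave -0.207 and -0.141, so both lay on 1 side, and the first alone was past the threshold when single features were tested (adjusted p = 0.0239). Fitm2, an endoplasmic reticulum protein needed for lipid droplet formation, had the tightest values of the lower genes, with -0.126, -0.152, -0.154 and -0.103 and an estimate of -0.105 ± 0.0210 (adjusted p = 0.0996). Adhfe1, a mitochondrial transhydrogenase of hydroxyacids, had an estimate of -0.192 ± 0.0497. Ogt, the enzyme that adds N-acetylglucosamine to nuclear and cytosolic proteins, had -0.0958 ± 0.0244. Their adjusted p was 0.206 for both.

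Loxl3 belongs to the lysyl oxidases, which crosslink collagen and elastin. It had log ratios of -0.334, -0.168, -0.202 and -0.172, with an estimate of -0.184 ± 0.0425 (adjusted p = 0.206). All 4 animal pairs lay below 0. Stc1, which encodes the secreted glycoprotein stanniocalcin 1, had -0.118, -0.214, -0.241 and -0.0160. Its estimate of -0.0982 ± 0.0254 averaged 3 features that disagreed in size, at -0.0574, -0.20 and -0.0373. Kbtbd7, a substrate adaptor of a ubiquitin ligase, had the largest size of the lower genes named by this rule, -0.206 ± 0.0529. Its array values spanned -0.263 to -0.168, but its 2 features disagreed in size, at -0.307 and -0.106. Nudt3, a phosphatase of inositol pyrophosphates, had an estimate of -0.203 ± 0.0439, but the array N3_N7 2 gave -0.571 against -0.0967 to -0.0897 on the other 3. Without that array the estimate was -0.146. Gabpb1, a subunit of the transcription factor GABP, had 4 features, of which 2 lay near 0 at 0.00363 and -0.00568 and 2 lower at -0.212 and -0.101. The remaining lower genes were Asic5, an acid-sensing ion channel relative, at -0.140 and Tex9 at -0.137. The 3 features of Tex9 gave -0.287, -0.0280 and -0.0963.

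**Figure D1:**
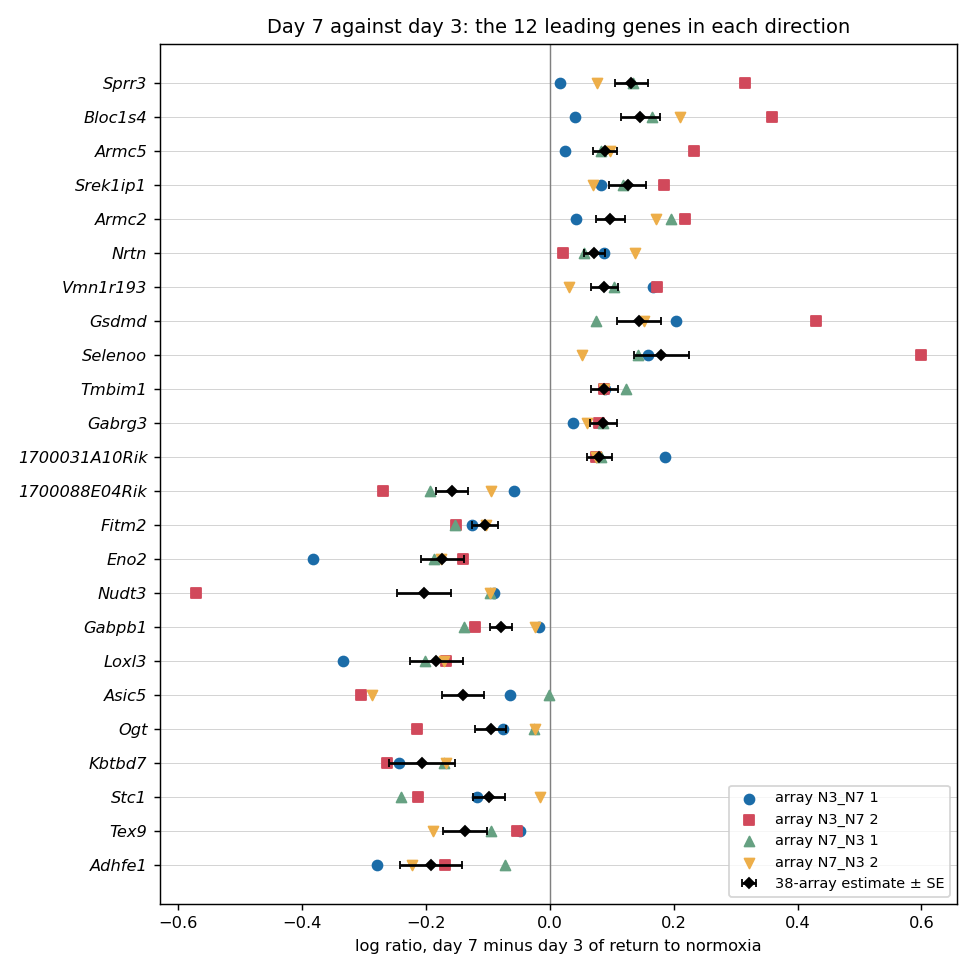
Log ratios of day 7 minus day 3 on the 4 direct arrays (1 symbol per array, each 1 animal of each day) for the 12 leading genes in each direction, with the estimate of the 38 arrays and its SE as black diamonds. The array N3_N7 2 (red squares) holds the outermost value of Selenoo, at 0.600, and of Nudt3, at -0.571, while the 4 values of Fitm2 and of Kbtbd7 lie close together.

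Among the genes on the other side, none was called. Sprr3, a small proline-rich protein of cornified epithelia, had log ratios of 0.0159, 0.316, 0.135 and 0.0757, with the smallest p of this group (0.131 ± 0.0266, adjusted p = 0.0996). Bloc1s4, a subunit of the complex that forms lysosome-related organelles, had 0.0403, 0.358, 0.165 and 0.210 (0.146 ± 0.0320, adjusted p = 0.157). For both, the highest value came from N3_N7 2 and the lowest from N3_N7 1. Gsdmd, whose product forms membrane pores in inflammatory cell death, had 0.203, 0.430, 0.0746 and 0.151, with an estimate of 0.144 ± 0.0355 (adjusted p = 0.206). Its 10 features gave 0.127 to 0.157, but whether these are separate probes or repeats of 1 probe could not be told. Selenoo, a selenoprotein of mitochondria, had the largest estimate of this group, 0.180 ± 0.0445, which was 0.114 without N3_N7 2. Tmbim1, a membrane protein of the Bax inhibitor family, was the tightest, with 0.0885, 0.0871, 0.123 and 0.0880 and an estimate of 0.0875 ± 0.0219. The remaining genes were Srek1ip1 at 0.126, Armc2 at 0.0976, Armc5 at 0.0884, the vomeronasal receptor Vmn1r193 at 0.0878, the receptor subunit Gabrg3 at 0.0866, 1700031A10Rik at 0.0796 and Nrtn, the neurotrophic ligand neurturin, at 0.0719.

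Set against hypoxia in the same fit, the 24 genes mostly lay on opposite sides of hypoxia at day 7 and day 3. Of the 12 genes with a positive step, 11 were above hypoxia at day 7 and 12 were below it at day 3. Of the 12 with a negative step, 12 were below hypoxia at day 7 and 12 above it at day 3. Choosing genes by the size of the step favours this pattern. At day 14, 11 of the first 12 and 12 of the second lay between their day 3 and day 7 values. The same choice favours this too, and the share over all entries was not computed. The log ratio of 1700088E04Rik against hypoxia was 0.0366 at day 1, 0.103 ± 0.0238 at day 3, -0.0550 ± 0.0240 at day 7 and 0.0116 at day 14, and normoxia minus hypoxia was -0.00915. Eno2 followed 0.0165, 0.0752, -0.0987 and -0.0543 over the same days. Bloc1s4 was lowest at day 3, with -0.178 ± 0.0299, and stood at -0.0317 ± 0.0302 at day 7.

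**Figure D2:**
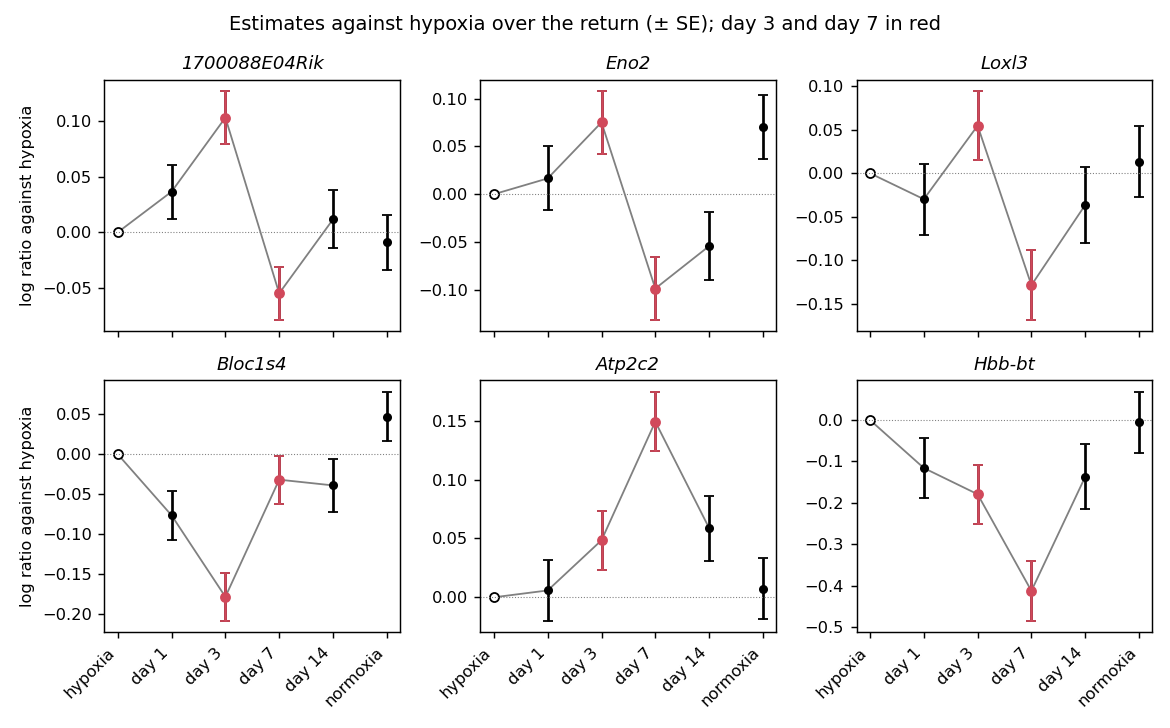
Estimates of 6 genes against hypoxia (log ratio ± SE, 38 arrays) at days 1, 3, 7 and 14 of return and in normoxia; hypoxia is the open point at 0, and day 3 and day 7 are red. The value of 1700088E04Rik is -0.0550 at day 7 and 0.103 at day 3, that of Atp2c2 is 0.149 at day 7 and 0.0484 at day 3, and vertical scales differ between panels.

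The neighbouring steps gave fewer entries at the same levels. Day 3 minus day 1 gave 0 called entries in limma and 1418 (4.626%) at an unadjusted p under 0.05. Day 14 minus day 7 gave 0 and 1123 (3.664%), beside 10.23% for day 7 minus day 3. These steps share their day 3 or day 7 animals with the step described here, and the counts were not tested against each other. The difference between steps was tested in the same fit. No entry was called for day 7 minus day 3 less day 3 minus day 1, where 2530 had an unadjusted p under 0.05, nor for the same step less day 14 minus day 7, where 2343 had one. The smallest adjusted p was 0.0706 for the first, at Asic5 (-0.312 ± 0.0553), and 0.0872 for the second, shared by feature 32684 (-0.449) and 1700088E04Rik (-0.225 ± 0.0421). For 1700088E04Rik the difference from the earlier step was -0.225 ± 0.0420 (adjusted p = 0.0825). No gene was thus shown to change in this step more than in a neighbouring one. The next named genes by p in the first test were Nudt3 (-0.354), Bbs7 (-0.264), Zfp334 (-0.239) and Igsf8 (-0.319) below 0, and Bloc1s4 (0.248), Sprr3 (0.192), Eny2 (0.205), Edar (0.0936), Ssx9 (0.187) and Armh3 (0.325) above 0. In the second they were Slc25a32 (-0.256), Igsf8 (-0.297), Bpgm (-0.222), Cysltr1 (-0.127) and 9530091C08Rik (-0.341) below 0, and Ppt2 (0.231), Tmbim1 (0.177), Gabrg3 (0.171), Rapgefl1 (0.152), Olfr1012 (0.146) and Atp2c2 (0.191) above 0.

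The 4 direct arrays did not resemble each other across entries. Their pairwise correlations over 30653 entries, with the dye effect removed, ran from -0.0528 to 0.0514 with a median of 0.0151, beside a median of 0.127 among the 8 arrays of hypoxia and normoxia. The points share arrays and the genes are not independent. The spread of log ratios was largest of all 38 arrays on N3_N7 2 (SD 0.169) and ranked 3rd on N7_N3 2 (0.127), against 0.108 on N3_N7 1 and 0.106 on N7_N3 1. The 4 arrays alone gave 0 called entries in limma and 1326 at an unadjusted p under 0.05, with 2 residual degrees of freedom. The 34 others alone gave 0 and 2254. Over all entries the mean of the 4 arrays and the estimate of the 34 others had a correlation of 0.0732. Eno2 had a mean of -0.222 ± 0.109 (SD, n = 4) on the direct arrays and -0.119 ± 0.0497 (SE) on the others. Bloc1s4 had 0.193 ± 0.131 and 0.0907 ± 0.0429, and Armc2, an armadillo repeat protein, 0.157 ± 0.0787 and 0.0259 ± 0.0297.

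**Figure D3:**
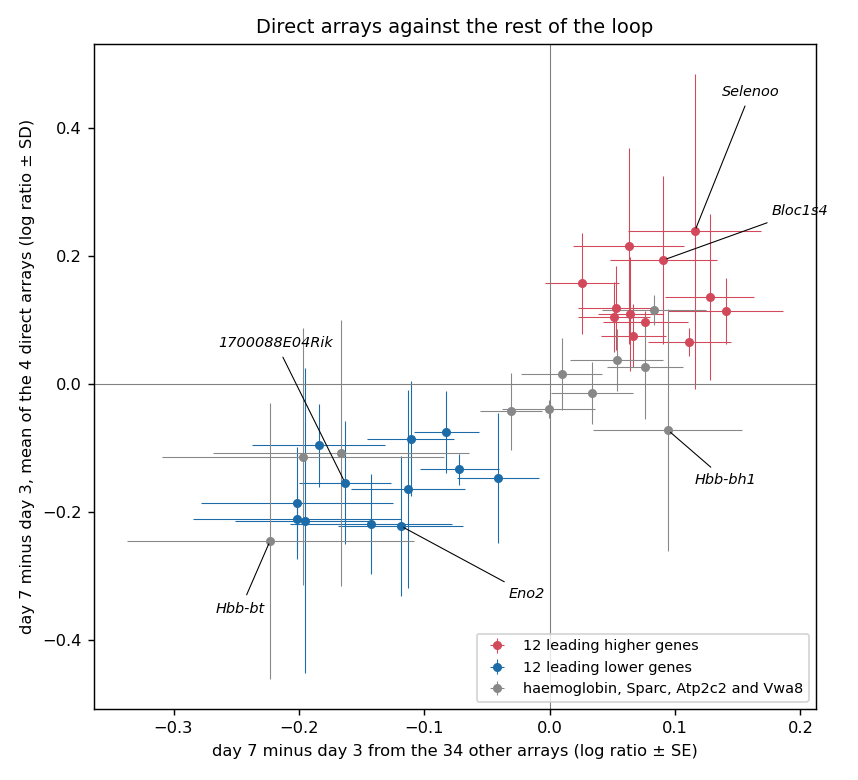
Mean log ratio of day 7 minus day 3 on the 4 direct arrays (± SD, vertical) against the estimate from the 34 other arrays (± SE, horizontal) for the 24 leading genes, the haemoglobin genes, Sparc, Atp2c2 and Vwa8. The 24 leading genes lie in the quadrants where both estimates share a sign, and Hbb-bh1 does not, with -0.0720 and 0.0943. The 24 were chosen by their sign on the direct arrays and by the fit of all arrays, which favours a shared sign.

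Genes that had stood out against hypoxia in an earlier analysis of these arrays, a list that is no independent evidence, were followed through the step. Atp2c2, a calcium and manganese pump of the secretory pathway, had similar values on all 4 arrays: 0.0930, 0.140, 0.0978 and 0.132. The estimate was 0.101 ± 0.0268 (adjusted p = 0.217), on top of 0.0484 ± 0.0251 against hypoxia at day 3. Sparc, a matricellular protein that binds collagen, had -0.0479, -0.0246, -0.0552 and -0.0312, but an estimate of -0.0219 ± 0.0240 (adjusted p = 0.798), since the 34 other arrays gave -0.000696. It stood at -0.127 against hypoxia at day 7 and at -0.105 at day 3. Vwa8, a mitochondrial ATPase, had -0.0378 ± 0.0171 (adjusted p = 0.443).

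Haemoglobin transcripts come from red cells and their precursors, and mark blood in the vessel lumen. Hbb-bt, an adult beta globin, had log ratios of -0.0746, -0.559, -0.194 and -0.150, all below 0, with an estimate of -0.233 ± 0.0765 (adjusted p = 0.306). Its 4 features gave -0.289 to -0.136. Hba-a1 and Hba-a2 are nearly identical alpha globin genes whose probes may share transcripts. Their estimates were -0.133 ± 0.0691 (adjusted p = 0.521) and -0.150 ± 0.0750 (adjusted p = 0.496), and for both the array N3_N7 2 was far below the others, with -0.416 and -0.409. Without that array Hba-a1 was at -0.0884. Against hypoxia Hbb-bt stood at -0.412 ± 0.0721 at day 7, -0.179 ± 0.0714 at day 3 and -0.137 at day 14. The embryonic globins Hba-x (0.0131), Hbb-bh1 (0.00355) and Hbb-y (0.00736) were near 0. The theta globins Hbq1a (0.0445) and Hbq1b (0.0482 ± 0.0218) lay above 0. Hbq1b had an unadjusted p of 0.0339 in limma (adjusted p = 0.445). Of the 11 measured members of the red cell list 7 were below 0 and the median was -0.0449, and on N3_N7 2 the mean of the list was -0.173, against -0.0381 to 0.0383 on the other 3 arrays. Bpgm, the enzyme that makes the oxygen-affinity regulator of red cells, had -0.115 ± 0.0326 (adjusted p = 0.227), with -0.0626, -0.153, 0.0813 and -0.246 on the arrays.

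In all, 47 gene lists with 816 measured members of 881 were described. No list held a called member, where 0.00979% of all entries were called, and 12 lists had no member with an unadjusted p under 0.05. Of the 799 different genes in the lists, 31 (3.88%) were higher at day 7 at that level and 40 (5.01%) were lower, near or under the shares of all entries (5.56% and 4.67%). The medians ran from -0.0449 (red cell) to 0.0134 (mast cell and eosinophil), with 34 lists below 0 and 13 above, beside a median of 0.00241 over all entries. Of all entries 47.13% had an estimate below 0 and 52.87% above it, the background for the counts by sign in each list. For 7 of the 47 lists the medians on the 4 arrays shared 1 sign. Of the 16 sign patterns 2 do so, and 11.8% of all entries had 1 sign on all 4. Without the array N3_N7 2 the endothelial median was -0.00276 in place of -0.0204 and the elastic fibre median -0.0157 in place of -0.0359. Without it the medians of 10 of the 47 lists changed sign, for example the unfolded protein response (0.00619 in place of -0.0272), antioxidant genes (0.00282 in place of -0.0157) and fibrillar collagens (0.00325 in place of -0.00891).

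**Figure D4:**
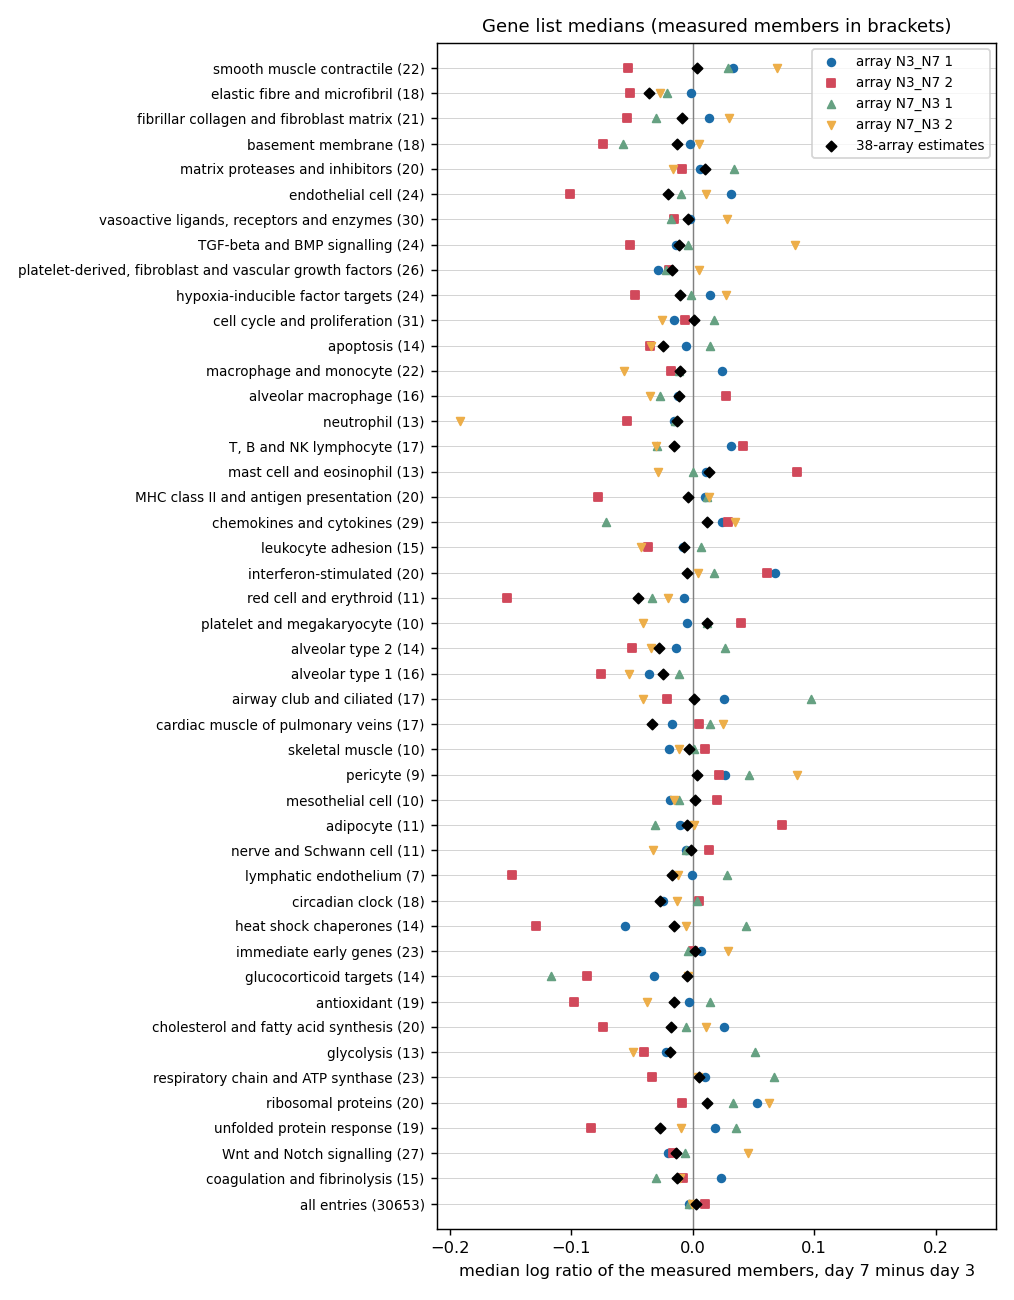
Median log ratio of day 7 minus day 3 of the gene lists named on the left on each of the 4 direct arrays (coloured symbols) and over the estimates of 38 arrays (black diamonds), with all entries in the bottom row. The red squares of N3_N7 2 reach -0.153 for the red cell list and -0.101 for the endothelial list, while every black diamond lies between -0.0449 and 0.0134.

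In the vessel wall, the contractile genes of smooth muscle were near 0. Of 22 measured, 12 lay above and 10 below 0, none had an unadjusted p under 0.05, and the members ran from -0.0496 to 0.0482. Of 24 endothelial genes 16 lay below 0, the lowest at -0.0811, and none had an unadjusted p under 0.05. Among 18 elastic fibre genes, 11 were below 0, and 2 had an unadjusted p under 0.05. These were Lox (-0.128 ± 0.0447, adjusted p = 0.335), the lysyl oxidase that acts on elastin and collagen, and Ltbp2 (-0.0961 ± 0.0437, adjusted p = 0.447), a microfibril protein. Lox had 0.0198, -0.402, 0.00151 and -0.221 on the direct arrays, 2 near 0 and 2 below it, and -0.103 ± 0.0610 on the 34 others. Ltbp2 had -0.433 on N3_N7 2 and was at -0.0435 without it. Of 21 fibrillar collagen and fibroblast genes 16 were below 0, with Col1a2, a chain of type I collagen, at -0.0830 ± 0.0334 and Col15a1 at 0.0885 ± 0.0401 (adjusted p = 0.392 and 0.445). Col15a1 had 0.359 on N3_N7 2, against -0.122 to 0.0296 on the other 3, and was at 0.0463 without it. Of 18 basement membrane genes, Col4a6 (0.0600), Lama2 (0.0499) and Col4a3 (-0.0539) had an unadjusted p under 0.05. Without N7_N3 2 Lama2 was at 0.0236 and Col4a3 at -0.0349. Matrix proteases and inhibitors numbered 12 above and 8 below 0, with Adamts4 (0.0960), Adamts5 (0.0737) and Mmp14 (0.0712), 3 enzymes that cut matrix, at that level. Adamts4 was at 0.0177 without N3_N7 2 and Adamts5 at 0.0477 without N7_N3 2.

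Signals to the wall gave single genes at an unadjusted p under 0.05 and no called member. Of 26 growth factor genes 18 were below 0, and Pgf, a ligand of the VEGF family, had the largest size (-0.161 ± 0.0683, adjusted p = 0.414), with -0.264, 0.103, -0.181 and -0.405 on the arrays. Fgfr1, a receptor for fibroblast growth factors, had -0.0802 ± 0.0249 (adjusted p = 0.280) over 13 features, and -0.0441 without N3_N7 2. Features 14109 and 42610 of Fgfr1 gave -0.0218 and 0.0254, and the rest gave -0.106 to -0.0879. Angpt1, the ligand of the endothelial receptor Tie2, had 0.0873, 0.0253, 0.284 and 0.170, all above 0, and an estimate of 0.0908 ± 0.0335 (adjusted p = 0.360), which was 0.0582 without N7_N3 1. In the TGF-beta and BMP list 16 of 24 were below 0, with Bmpr1a, a type I BMP receptor, at -0.0866 and Inhba, a subunit of activin, at -0.123. Without N3_N7 2 they were at -0.0473 and -0.0788. Of 30 vasoactive genes 17 were below 0 and Agt, the angiotensin precursor, was at 0.0461, or 0.0272 without that array. Notch1, a receptor of arterial smooth muscle and endothelium, was at -0.108 ± 0.0417 over 11 features (adjusted p = 0.375), with -0.287 on N3_N7 2 and -0.0578 to -0.0341 on the others.

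Oxygen-dependent and metabolic genes did not share a direction. Of 24 targets of hypoxia-inducible factors 9 were above and 15 below 0. Higd1a, a mitochondrial protein induced by hypoxia, had 0.109 ± 0.0361 (adjusted p = 0.306), Egln3, an oxygen-sensing hydroxylase, -0.116 ± 0.0466 (0.390), and Ankrd37 0.114 ± 0.0543 (0.472). The value of Ankrd37 came from N3_N7 2, at 0.685 against 0.0541 to 0.124 on the others, and was 0.0250 without that array. Higd1a was at 0.0700 without it. Of 13 glycolysis genes 9 were below 0. Besides Eno2 these included Pgam1, phosphoglycerate mutase, at -0.105 (-0.0573 without N3_N7 2 and -0.0571 without N7_N3 2), while Slc16a3, the lactate exporter, was at 0.0694 with 0.0602, 0.170, 0.0798 and 0.0901 on the arrays. Among 23 respiratory chain genes 14 were above 0 and none had an unadjusted p under 0.05. Of 19 antioxidant genes, Gsr, glutathione reductase, was low on all 4 arrays (-0.122 to -0.0689) but at -0.00150 on the 34 others. Sod1, the cytosolic superoxide dismutase, had 12 features and 0.0994 ± 0.0366 (adjusted p = 0.358), with -0.0243 on the 34 others and 0.0546 without N3_N7 2. Features 3542 and 9419 of Sod1 gave -0.0320 and 0.0308, and the rest gave 0.108 to 0.130.

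Cell division genes were split: of 31, 16 were above and 15 below 0. Rrm2, a ribonucleotide reductase subunit, had 0.153 ± 0.0574 (adjusted p = 0.363), with -0.0669, 0.407, 0.0572 and -0.0801 on the direct arrays and 0.244 on the others. Mcm3, of the replicative helicase, was at 0.0795, Ccnb2, a mitotic cyclin, at 0.0644 and Bub1, a spindle checkpoint kinase, at -0.136. Ccnb2 was at 0.0234 without N7_N3 2. Of 14 apoptosis genes 9 were below 0 and the death receptor Fas was at 0.0958. Its 11 features were averaged, and they differed in sign: feature 16815 was at -0.0945 and the others ran from 0.0975 to 0.127.

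Among genes of other cells, Ms4a7, a macrophage membrane protein, had -0.254, -0.180, -0.177 and -0.0624 on the arrays, all below 0, and an estimate of -0.132 ± 0.0376 (adjusted p = 0.227). Adgre1, a surface marker of mouse macrophages, was at -0.0797 ± 0.0345, and 15 of the 22 macrophage genes were below 0. Itgb2, the beta 2 integrin of leukocytes, had -0.139 ± 0.0454 (adjusted p = 0.304), with -0.474 on N3_N7 2 and -0.158 to -0.0359 on the other 3, and was at -0.0873 without it. Il1b, the cytokine interleukin 1 beta, had 0.170, 0.594, 0.0628 and 0.0492, all above 0, and an estimate of 0.178 ± 0.0665 (adjusted p = 0.361) over 10 features. It was at 0.114 without N3_N7 2. Mif, macrophage migration inhibitory factor, had -0.0516, -0.0898, -0.0705 and -0.0723, with an estimate of -0.0995 ± 0.0415 (adjusted p = 0.408). The interferon-stimulated genes gave both signs: Ifit1 had -0.103, -0.0928, -0.157 and -0.0706 (-0.125 ± 0.0355, adjusted p = 0.227), while Isg15 had 0.0930, 0.0606, 0.0586 and 0.205 (0.0655 ± 0.0281, adjusted p = 0.419), and was at 0.0420 without N7_N3 2.

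Markers of tissue beside the vessel differed between the arrays. The mean of the 30 alveolar type 1 and type 2 genes was -0.0177, -0.102, 0.0195 and -0.0338 on the 4 arrays, and the array N3_N7 2 was again the lowest. With this mean as a covariate 0 entries were called by limma, 2251 had an unadjusted p under 0.05, and 1700088E04Rik had an adjusted p of 0.0570. On the same array the endothelial mean was -0.149, against 0.00782 to 0.0355 on the other 3. Smooth muscle genes had means of 0.0416, -0.0454, 0.0340 and 0.0905. Of 17 genes of the heart muscle that sheathes pulmonary veins 15 were below 0 with a median of -0.0337, which came from the 34 other arrays (-0.0985), since the direct medians ran from -0.0172 to 0.0248. The part of tissue composition in any of the values was not tested beyond these numbers.

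Last, entries that differed between hypoxia and normoxia were followed on the direct arrays. They were taken from the 18 arrays that hold neither day 7 nor day 3, so the 2 sets of arrays share no animal. Of 522 entries higher in hypoxia, 348 (66.67%) had a mean below 0 on the direct arrays, beside 47.88% of all entries. On the reverse reading of the dyes these 522 would be lower in hypoxia, and the same 348 would lie above 0 at day 7. Their median was -0.0284, with -0.00600, -0.0887, 0.00563 and -0.0124 on the 4 arrays. Without N3_N7 2 the median was -0.00361, with 270 below 0, so the shift rests on that array. Of 604 entries lower in hypoxia, 286 (47.35%) were below 0, with a median of 0.00242, and -0.00800 without that array. In the fit of 38 arrays the first set had a median of -0.0274, with 73 entries lower and 12 higher at an unadjusted p under 0.05, and the second a median of 0.0183, with 5 lower and 53 higher. That fit uses hypoxia animals of the arrays that chose the sets. None of these entries was called for day 7 minus day 3.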

How the data were processed

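Each of 38 Agilent arrays compared the vessels of 1 mouse in Cy3 with those of 1 mouse in Cy5. The authors deposited 1 log ratio per feature, read here as log10, and used limma, per the submitters' processing notes. How background and dye bias were corrected was not given in the sources used here. Of 45220 features, 2 lacked a value on some array and were dropped. Features of 1 gene symbol were averaged (8343 genes with several features), and the rest were kept apart. Probe sequences were not at hand, so features that repeat 1 probe could not be told from separate probes. A probe present many times would weigh more in such an average. The RefSeq table of GRCm38.p6 changed 0 symbols.

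The model was fitted in R 4.3.3 with limma 3.58.1 (lmFit, eBayes), with a dye intercept and condition terms against hypoxia. It left 32 residual degrees of freedom, and the residual SD had a median of 0.0821. Tests were two-sided. Values on single arrays had the fitted dye effect removed (290 entries had one at an adjusted p under 0.05). P-values rest on the residual spread between arrays, which holds technical spread as well as that between animals. Without brightness, slide or scan date, dim features and batches could not be checked, and the number of arrays limits the precision.

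Named genes were the 12 in each direction with the smallest p among those with 1 sign on all 4 direct arrays, up to 4 per list by p, the globins, genes called earlier against hypoxia, and up to 6 per direction for the differences between steps. Where another gene or feature is named, it was chosen after its values were seen. The members and lists were chosen with earlier results of these data known. Replicate numbers do not pair the arrays: the difference of replicates 1 and 2 correlated at 0.0300 between dye orientations. The alternatives are given in the closing section. The steps were tested on simulated data.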

Additional observations from a re-analysis of the deposited data

Results flagged for a closer look

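Of 102 named genes, 12 had 1 of the 4 direct arrays far from the other 3: the gap to the nearest array, as a share of the range of all 4, was over Dixon's critical value. For normal values of equal spread, chance gives about 1 such gene in 20. These arrays differ in spread and many of the genes were chosen by values on them, so the count cannot be set against that rate. The array N3_N7 2, the one with the largest spread of the series, was the outlying one for 9 of them. On it the log ratio of day 7 minus day 3 was 0.198 for Adipoq, 0.685 for Ankrd37 and 0.361 for Ccl7. It was -0.332 for Calr, -0.494 for Gclc, -0.416 for Hba-a1, -0.287 for Notch1, -0.571 for Nudt3 and -0.327 for Slc34a2. The array N3_N7 1 stood apart for 1700031A10Rik, at 0.186 against 0.0741 to 0.0824 on the others. N7_N3 1 did so for Tmbim1, at 0.123 against 0.0871 to 0.0885, and N7_N3 2 for Lrp5, at 0.0699 against 0.0156 to 0.0219. The cause was not tested.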

How the results depend on the processing

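The count of 3 called entries was small enough that most settings changed it. It was 0 with arrays scaled to 1 spread, with array weights, with the 4 direct arrays alone, with the 34 others alone, with the alveolar mean as a covariate, and with a minimum of 1.2-fold on either reading of the base. It was 10 with single probes, 6 with the probe of largest SD, and 1 with named genes alone. It was 2 without the dye term and 2 with robust empirical Bayes, and 3 with centred arrays and with entries above the median SD alone. With the replicate block it was also 2, although the numbers do not pair the arrays. Leaving out 1 array gave 0 (N3_N7 2 and N7_N3 1) to 6 (H_N3 1) called entries. For the difference from the earlier step it gave 0 to 4, the most without N3_N7 1 and without H_N7 1, and for the difference from the later step 0 to 2, the most without N14_N7 2 and without N3_N7 1.

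The estimate of 1700088E04Rik ran from -0.174 to -0.139 over these settings. It was called in 8 of 15 and in 36 of 38 fits with an array left out. Eno2 was called with single probes and with the probe of largest SD. With 1 array left out, Eno2 was called in 3 of 38 fits, Fitm2 in 2 and Loxl3 in 1.

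Without N3_N7 2, 26 of 102 named genes moved by over 1.5 times, 1 of them in sign. Changes of sign among named genes were few and small in most cases. With arrays scaled Hbb-bh1 was at -0.00432, with array weights at -0.0105 and on the direct arrays alone at -0.0720, and with an array left out it ran from -0.0193 to 0.0442. Hba-x was at -0.00241 with array weights. With the probe of largest SD Fgfr1 was at 0.0254, Fas at -0.0945 and Gsr at 0.00613. On the direct arrays alone Hbb-y was at -0.0145 and Elovl6 at 0.0179. On the 34 other arrays alone Ankrd37 was at -0.0191, Sod1 at -0.0243, Gclc at 0.0126 and Ddit4 at 0.0528. The causes were not tested.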

Other observations

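When the 45218 single features were tested in place of gene averages, 10 were called, 2 higher and 8 lower at day 7. Besides 1700088E04Rik, Eno2 and both unnamed features, they belong to genes whose other features did not share the size. The feature of Rasal2, a GTPase-activating protein of Ras, had -0.288, -0.274, -0.317 and -0.376 on the 4 arrays and an estimate of -0.240 ± 0.0384 (limma, adjusted p = 0.0116). Its 4 other features ran from -0.0963 to 0.0516. One of 14 features of Dmd, the dystrophin gene, was at -0.209 (adjusted p = 0.0188), with the others from -0.0672 to 0.0102. The feature of Ap3m1, an adaptor subunit of vesicle sorting, had 0.120, 0.153, 0.184 and 0.243, with an estimate of 0.192 (adjusted p = 0.0323) beside -0.0569 to 0.0415 for its others. The feature of Spata17 was at 0.286, with 0.214, 0.834, 0.0566 and 0.529 on the arrays. Its others gave 0.0608 and 0.0762. The feature of 4930599N23Rik was at -0.126, with -0.143, -0.312, -0.0954 and -0.106 on the arrays, and its other feature gave 0.0232. The remaining called feature is not reported here. Whether such features detect other transcripts of the same gene was not tested.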
